A study of Homo sapiens with 4 samples.

Results

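The annexins are a family of calcium-dependent phospholipid-binding proteins, and 10 of them (ANXA1, ANXA2, ANXA3, ANXA4, ANXA5, ANXA6, ANXA7, ANXA9, ANXA10 and ANXA11) were followed in LNCaP and PC3 prostate cancer cells exposed to atorvastatin (ATO). Members were taken by gene name from the array design, which gave 13 probes for 10 of the 27224 gene names that had a usable probe. Every probe of a member was read, and 3 of the 10 genes (ANXA2, ANXA7 and ANXA11) had 2 probes each. The family was selected on measured values of these arrays, among them the ratio of ANXA10 in PC3 cells, so all levels and ratios of the members are given as a description and none carries a test.

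LNCaP is an androgen-responsive line and PC3 an androgen-independent line, both from metastases of human prostate cancer and obtained from a cell repository. Each line was measured once as an untreated control, for which the labels name no vehicle, and once after 24 h with 10 µM ATO, a statin that inhibits HMG-CoA reductase. Total RNA was labelled with 1 dye and hybridised to 1 array per group, so there were 4 arrays, 4 groups and no replicates. All cells were kept in RPMI medium with 10% FBS, the 4 arrays were on 1 slide in 1 scan, and the position on the slide cannot be told apart from the group.

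Annexins share a core of repeated domains that bind calcium and, through it, acidic phospholipids at membranes. Members differ in their N-terminal tails, which bind partners such as the small calcium-binding S100 proteins. They take part in membrane repair, vesicle traffic, exocytosis and plasmin formation at the cell surface, and loss or gain of single annexins has been described in many carcinomas, including those of the prostate.

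Between 48.5% and 52.9% of the 43118 gene spots of an array were well above background, no spot was saturated, and from 0.348% to 15.3% of the spots of an array lay in a bright local background (over the median of the array by more than 3 robust SDs). The lowest value called well above background was 27.4 units on the LNCaP control array and between 52.1 and 54.7 units on the other arrays, so the limit for a dim probe differed by 0.90 on the log2 scale between the LNCaP arrays. In the untreated cells the LNCaP markers KLK3 and TMPRSS2 were both higher in LNCaP, and 3 of 3 PC3 markers (CAV1, CD44 and VIM) were higher in PC3, each at least 2-fold. The sterol-responsive genes HMGCS1 and INSIG1, read as a check of the treatment, were each at least 1.5-fold higher with ATO in both lines. HMGCS1 in PC3 was just past this threshold at 1.54-fold, and its PC3 ATO spot lay in a bright local background.

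Levels are processed intensities in scanner units, and ratios are differences of log2 intensity after each array was scaled to its 75th percentile, so a ratio can differ slightly from that of the printed levels. The error given with a ratio comes from the error model of the scanner software. It covers the reading of the spots and not the spread between cultures, and every value is only as precise as a single array per group allows. Levels of different probes were not set against each other, since each probe has its own brightness. In bulk RNA, fewer cells that express a gene and less RNA per cell cannot be told apart.

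The probes of ANXA2, ANXA3 and ANXA6 resemble each other and are shown because they give a view of how far the probes of related members differ. They are given 5' to 3' as designed, with capitals for the bases that are identical in all 3 in their best alignment without gaps. ANXA2 (chr15:58427172-58428616, minus strand of hg18, over 1445 bases of the genome), ANXA3 (chr4:79744519-79750234, plus strand, over 5716 bases) and ANXA6 (chr5:150463327-150463386, minus strand) had these sequences.
ANXA2: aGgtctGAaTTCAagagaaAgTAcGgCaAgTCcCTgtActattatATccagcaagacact
ANXA3: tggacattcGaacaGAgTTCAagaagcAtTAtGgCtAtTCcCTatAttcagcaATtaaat
ANXA6: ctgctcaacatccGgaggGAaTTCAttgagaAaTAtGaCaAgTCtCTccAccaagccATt
All 3 probes were 60 bases long, and those of ANXA2 and ANXA3 cover more genome than their length. The ANXA2 and ANXA3 probes shared 29 of 52 aligned bases, those of ANXA2 and ANXA6 shared 27 of 48, and those of ANXA3 and ANXA6 shared 34 of 56. All 3 were identical at 20 of 48 positions. By these probes ANXA2 and ANXA3 were both not well above background in LNCaP and bright in PC3, as described next. ANXA6 was well above background on every array. The PC3 log2 ratios with ATO were 0.06 for ANXA2 and -0.47 for ANXA3.

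The largest differences between the untreated lines were in ANXA1, ANXA2 and ANXA3, which were bright in PC3 and at or near background in LNCaP. ANXA2, the annexin that assembles with S100A10 and binds tissue plasminogen activator at the cell surface, read, with its brighter probe, 11.1 units in untreated and 14.3 in ATO-treated LNCaP cells, and 49327 and 49821 units in untreated and treated PC3 cells. Neither LNCaP array was well above background, and both PC3 arrays were far above both LNCaP arrays. ANXA2 was at least 1523-fold higher in untreated PC3 than in untreated LNCaP, a bound set by the dim limit of the LNCaP array. With ATO the PC3 log2 ratio of ANXA2 was 0.06 ± 0.20, which was within the scanner error.

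The other ANXA2 probe, at chr15:58426880-58426939 on the minus strand, read 5.53, 10.8, 10.9 and 10.9 units in the same order and was not well above background on any array, so the probes of ANXA2 disagreed in PC3 and the gene was read by the brighter one. A probe designed for the pseudogene ANXA2P1 gave 5.67, 11.04, 15679 and 15602 units, with the PC3 arrays high and the LNCaP arrays dark, as ANXA2 itself. A probe for ANXA2P3 gave 5.84, 11.2, 170 and 193 units in the same order, again with neither LNCaP array well above background. How far either pseudogene probe reads ANXA2 mRNA was not tested.

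ANXA3, a vesicle-associated annexin also studied as a marker in prostate cancer, read 6.78 and 11.98 units in LNCaP control and LNCaP ATO, and 7506 and 5233 units in PC3 control and PC3 ATO. Neither LNCaP array was well above background, and the PC3 ATO array was below the PC3 control array. ANXA3 was at least 232-fold higher in untreated PC3 than in untreated LNCaP, a bound of 7.86 on the log2 scale that was 6.34 with normexp background correction and 5.42 with the deposited table. The deposited ratios of ANXA3 in LNCaP were 0.3 in control and 0.14 in ATO, above the lowest value there of 0.03. The bright spots with an outlier call, described below, read 148 and 73.7 units. The 75th percentiles of these arrays were 497 and 533 units, and the spots divided by them round to the deposited ratios. The 5.42 is set against that ratio of 0.3 and not against the unflagged spots. How the deposited table treats outlier spots was not tested further. In PC3 the log2 ratio of ATO over control was -0.47 ± 0.20, or 1.39-fold lower, which was short of the 1.5-fold threshold used for a call, and ANXA3 was the only annexin with a ratio below 0 in PC3 under this scaling. With spike-in scaling or quantile normalization ANXA2 and ANXA5 were below 0 as well.

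The ANXA3 probe was spotted 10 times on each array, so its reading can be followed within an array. The unflagged spots had a mean of 7510 ± 256 units (SD, n = 9 spots) in PC3 control and 5248 ± 421 units (SD, n = 10 spots) in PC3 ATO. Unflagged spots ranged from 7094 to 7879 units in PC3 control and from 4597 to 6001 units in PC3 ATO and did not overlap, while 1 PC3 control spot with an outlier call read 5536 units, inside the ATO range. These spots are copies on 1 array hybridised with 1 RNA and not replicates of the treatment, so their spread says nothing about the spread between cultures. In LNCaP 1 spot on each array had an outlier call and was bright (148 units in control, 73.7 units in ATO), whereas the unflagged spots read 5.81 to 10.2 and 11.1 to 13.2 units.

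**Figure D1:**
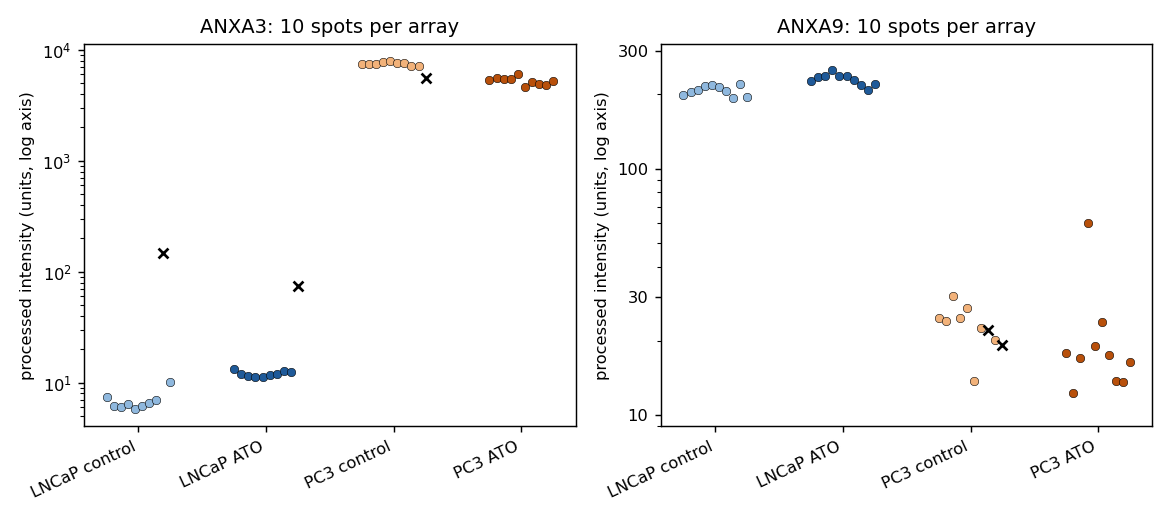
Processed intensity (units, log axis) of each of the 10 spots of the ANXA3 probe (left) and the ANXA9 probe (right) on the 4 arrays, where a cross is a spot with an outlier call. The unflagged ANXA3 spots lie between 7094 and 7879 units in PC3 control and between 4597 and 6001 units in PC3 ATO, and ANXA9 is bright only in LNCaP.

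ANXA1, a glucocorticoid-induced annexin that dampens inflammation through formyl peptide receptors, is read by a probe at chr9:74974822-74974881 (hg18, plus strand), whose first 30 bases are shown to identify it.
ANXA1: ggctctttgtggaggaaactaaacattccc
It read 33.8 units in untreated and 47.5 in treated LNCaP cells, and 9369 and 12661 units in untreated and treated PC3 cells. The LNCaP control value was just above the lowest value well above background on that array, and the LNCaP ATO value was not well above background, so no fold between the LNCaP arrays is given. Both PC3 arrays were far brighter, and untreated PC3 exceeded untreated LNCaP by 7.87 ± 0.33 on the log2 scale (234-fold). The difference was 6.18 with normexp background correction and 8.38 with spike-in scaling, a wider range than the scanner error. In PC3, ATO gave a log2 ratio of 0.48 ± 0.20 (1.40-fold), below the threshold, and 10.4% of the measured genes had a ratio at least as high. The PC3 control spot of ANXA1 lay in a bright local background, and its part in the result was not tested.

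ANXA10, a gastric annexin with divergent calcium-binding sites, was the member with the largest ratio in PC3. Its probe lies at chr4:169345139-169345198 (hg18, plus strand) and begins as follows.
ANXA10: tggtgatgctgaggactactaaaatgaaga
It read 8.90 units in untreated and 11.1 in treated LNCaP cells, and 87.0 and 485 units in untreated and treated PC3 cells. Neither LNCaP array was well above background, and the PC3 ATO array was the highest of the 4. With ATO the PC3 log2 ratio was 2.53 ± 0.27, or 5.76-fold higher, the rank 4 of 12513 genes measured in that line. This value was among those that chose the family, so it is a description and no support. In the untreated lines ANXA10 was at least 2.69-fold higher in PC3, a bound of 1.43 on the log2 scale that was under the 2-fold threshold with the 50th percentile (0.98), quantile normalization (0.92) and normexp (0.71). The control value in PC3 rests on 1 spot, and the lowest value well above background on that array was 52.1 units.

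ANXA9, an epithelial annexin whose core has lost most of its calcium binding, was the member with the opposite order of lines. It read 207 units in LNCaP control and 230 in LNCaP ATO, against 22.9 in PC3 control and 18.8 in PC3 ATO, and neither PC3 array was well above background. ANXA9 was therefore at least 4.71-fold higher in untreated LNCaP than in untreated PC3. The probe is at chr1:149234007-149234066 (hg18, plus strand) and was spotted 10 times, with a mean over the spots of 208 ± 9.51 units (SD, n = 10 spots) in LNCaP control and 230 ± 12.2 units (SD, n = 10 spots) in LNCaP ATO. The spots ranged from 193 to 219 and from 209 to 250 units and overlapped. After scaling, the LNCaP log2 ratio of ANXA9 was 0.05 ± 0.22.

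**Figure D2:**
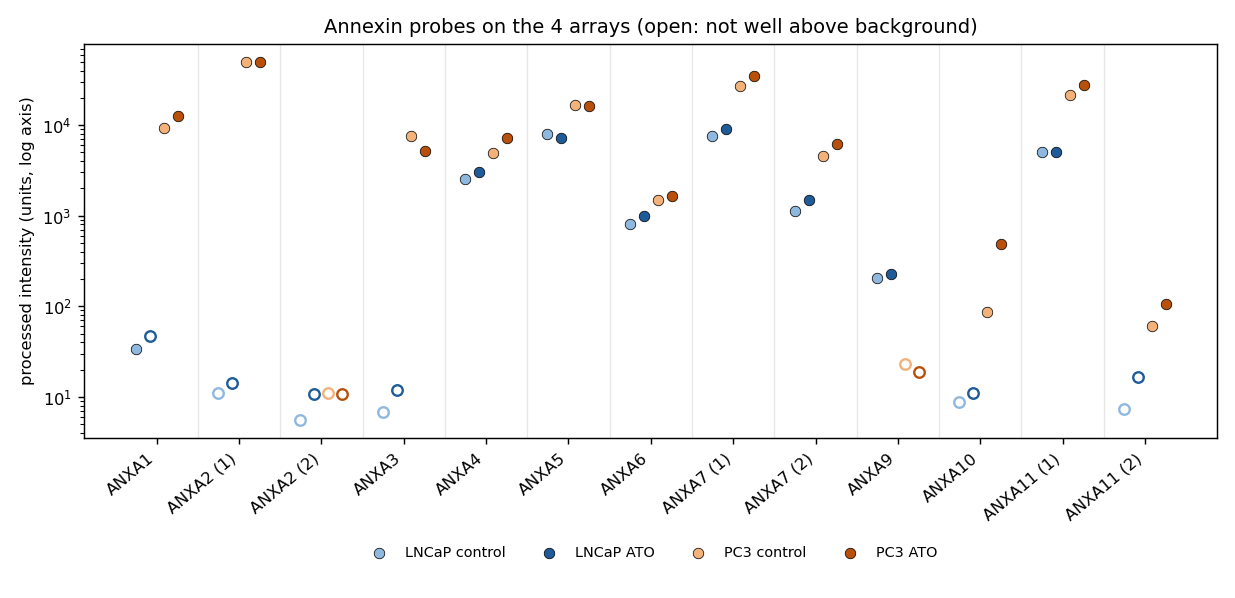
Processed intensity (units, log axis) of all 13 annexin probes on the 4 arrays, with open circles for values not well above background and a number in brackets for the probes of a gene with more than 1. The 3 members with the largest line difference, ANXA1, ANXA2 and ANXA3, read 9369, 49327 and 7506 units in PC3 control against 33.8, 11.1 and 6.78 units in LNCaP control.

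The remaining members were well above background on all 4 arrays, and their lines differed less. ANXA5, the phosphatidylserine-binding annexin used to stain dying cells, read 8020, 7293, 16590 and 16422 units, in the order untreated LNCaP, treated LNCaP, untreated PC3 and treated PC3. The log2 ratio with ATO was -0.24 ± 0.20 in LNCaP and 0.03 ± 0.20 in PC3, and neither passed the threshold. Untreated PC3 was 1.75-fold higher than untreated LNCaP, short of the 2-fold threshold used between lines.

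ANXA4, an annexin of epithelial membranes that modulates ion channels and membrane permeability, read 2574, 3012, 4974 and 7291 units in the same order, so the PC3 ATO array was the brightest. Its log2 ratio with ATO was 0.13 ± 0.20 in LNCaP and 0.60 ± 0.20 in PC3. The PC3 value of 1.52-fold was just past the 1.5-fold threshold, by less than the scanner error, and 6.89% of the measured genes had a ratio at least as high. Between the untreated lines, PC3 was 1.63-fold higher.

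ANXA6, whose core is duplicated and which organises cholesterol-rich membranes and late endosomes, read 820, 987, 1489 and 1659 units. The ATO ratios were 0.17 ± 0.21 (LNCaP) and 0.20 ± 0.20 (PC3) on the log2 scale, and untreated PC3 was 1.53-fold higher. With this scaling no comparison of ANXA6 passed its threshold, and the PC3 control spot lay in a bright local background whose part was not tested.

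ANXA7, the GTPase-linked annexin described as a tumor suppressor in prostate cancer, was read by 2 probes that moved alike. The brighter probe, at chr10:74805681-74805740 (minus strand), read 7550, 9101, 26873 and 34446 units in that order, and the other, at chr10:74805318-74805377, read 1114, 1490, 4516 and 6168 units. On both probes each ATO array was above its control and each PC3 array was above both LNCaP arrays. The log2 ratios with ATO were 0.17 and 0.32 in LNCaP and 0.41 and 0.50 in PC3, each ± 0.20, and none reached 1.5-fold. Untreated PC3 was 3.01-fold and 3.42-fold higher by the brighter and the other probe. The PC3 ATO spot of the brighter probe lay in a bright local background.

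ANXA11, which takes part in secretory vesicle traffic and late cell division, had 2 probes that were both higher with ATO in PC3. Only 1 of them passed the threshold. The brighter probe, at chr10:81905609-81907396 (minus strand, over 1788 bases), read 5111, 5069, 21566 and 27364 units, with log2 ratios of -0.11 ± 0.20 in LNCaP and 0.39 ± 0.20 in PC3. The other probe, at chr10:81901176-81901235 (minus strand), read 7.39 and 16.8 units on the LNCaP arrays, neither well above background, and 61.1 and 107 units in PC3 control and PC3 ATO. Its PC3 ratio of 0.86 ± 0.40 (1.81-fold) passed the threshold that the brighter probe did not reach, though the scanner errors of the 2 ratios overlap. Its PC3 control value was close to the lowest value well above background on that array, 52.1 units. Another probe, listed under a transcript name but described as Annexin A11 and so outside the rule, read 55.6, 62.6, 488 and 620 units and had a PC3 log2 ratio of 0.39, the value of the brighter probe. The PC3 ATO spot of the probe listed under a transcript name lay in a bright local background. Between the untreated lines the brighter probe was 3.56-fold higher in PC3. The second ANXA11 probe was at least 1.89-fold higher there, and the one listed under a transcript name 7.40-fold.

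**Figure D3:**
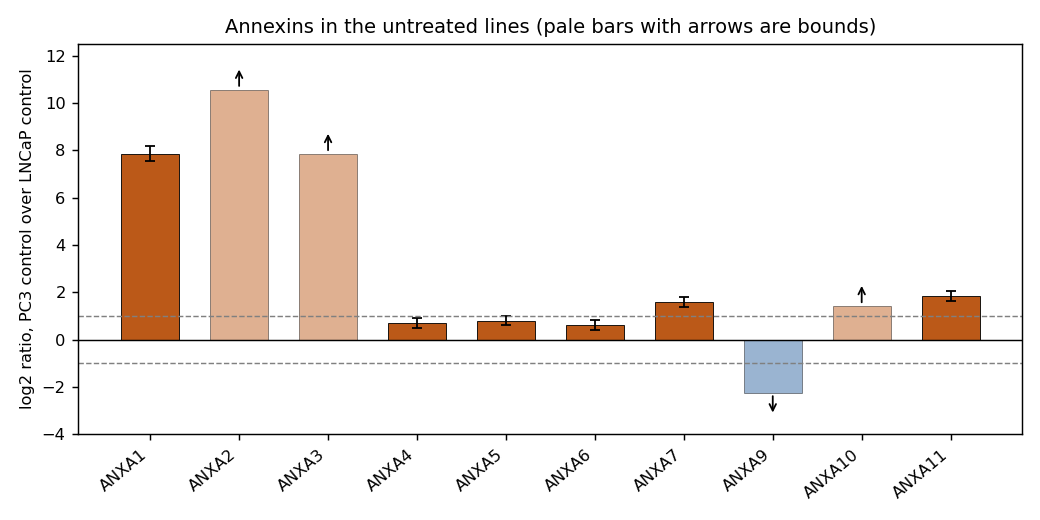
Log2 ratio of untreated PC3 over untreated LNCaP for each annexin, read by its brightest probe, with the scanner error as bars where both arrays were well above background, pale bars with arrows for bounds and dashed lines at 2-fold. ANXA9 is the only member below 0 (at least 4.71-fold higher in LNCaP), and ANXA4, ANXA5 and ANXA6 lie inside the 2-fold lines.

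In the untreated lines 7 of 10 annexins differed at least 2-fold, where 39.6% of all genes with a value did. Of these, 6 (ANXA1, ANXA2, ANXA3, ANXA7, ANXA10 and ANXA11) were higher in PC3, where 20.6% of all genes were higher, and ANXA9 was lower. For ANXA2, ANXA3, ANXA9 and ANXA10 the call rests on a bound. The median log2 ratio of the 6 annexins measured on both control arrays was 1.20, and that of all measured genes was -0.12. These values were among those in view when the family was proposed, and nothing is read from the count. With each array scaled to its spike-in probes the median of all genes moved by 0.51 and the 3 remaining annexins ANXA4, ANXA5 and ANXA6 also passed 2-fold, with log2 ratios of 1.21, 1.31 and 1.12. With the 50th percentile the median of all genes moved by -0.44, ANXA10 dropped under the threshold at 0.98 and 5 annexins were higher and 1 lower. Of all 15237 genes with a value, 4620 were higher and 1519 lower with spike-in scaling, and 2257 and 4737 with the 50th percentile.

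With ATO, 0 of the 6 annexins measured on both LNCaP arrays changed at least 1.5-fold, where 339 of the 12236 genes so measured did. Of all genes with a value, bounds included, 4.75% did. ANXA1, well above background on the control array alone, had no fold to call. Of the 6, 4 had a ratio above 0, and their log2 ratios lay between -0.24 (ANXA5) and 0.17 (ANXA7) with a median of 0.09, against 0.01 for all genes. ANXA2, ANXA3 and ANXA10 were not well above background on either LNCaP array, so no ratio could be read for them in that line.

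In PC3, 2 of 9 annexins with a value changed at least 1.5-fold, ANXA4 and ANXA10, both higher, where 18.5% of all genes changed and 8.2% were higher. Nothing is read from this count, because the PC3 contrast was in view when the family was chosen. Of the 9, 8 had a ratio above 0, where 51.3% of all measured genes did, and the median was 0.39, against 0.01 for all genes. The members between the called ones and 0 were ANXA1 at 0.48, ANXA7 at 0.41, ANXA11 at 0.39 and ANXA6 at 0.20. ANXA2 at 0.06 and ANXA5 at 0.03 lay within the scanner error, and their sign turned with spike-in scaling and with quantile normalization. With the 50th percentile in place of the 75th the median of all PC3 genes moved by 0.19, the split of all calls changed from 1133 higher and 1419 lower to 2154 higher and 910 lower, and 5 annexins were called, all higher. With spike-in scaling, where the split was 830 higher and 1803 lower, ANXA10 was the 1 annexin called.

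**Figure D4:**
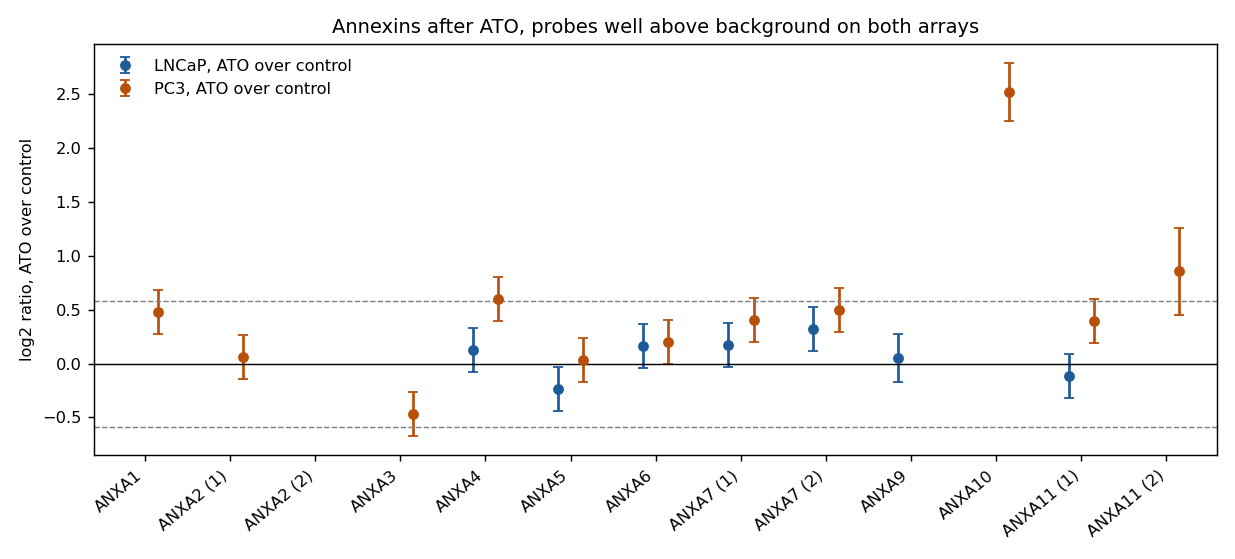
Log2 ratio of ATO over control in LNCaP and PC3 for every annexin probe well above background on both arrays of a line, with the scanner error as bars and dashed lines at 1.5-fold. ANXA10 at 2.53 in PC3 stands above the other probes, the second probe of ANXA11 and ANXA4 lie past the upper line, and no LNCaP point reaches either line.

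For 5 annexins a ratio could be read in both lines. The PC3 ratio minus the LNCaP ratio was 0.50 for ANXA11, 0.47 for ANXA4, 0.27 for ANXA5, 0.24 for ANXA7 and 0.04 for ANXA6, each with a scanner error of 0.29. All 5 were above 0 with a median of 0.27, where 49.9% of the 11016 genes read in both lines were above 0 with a median of -0.00. With spike-in scaling 2 of 5 were above 0 (ANXA4 at 0.18 and ANXA11 at 0.22), ANXA5 was at -0.02, ANXA7 at -0.05 and ANXA6 at -0.25, and the median of all genes was -0.29. With normexp, a model-based background correction, ANXA6 was also below 0, at -0.09. The difference between the lines was not tested, since each value rests on 4 arrays with 1 per group.

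The genes nearest to 3 members over the 4 arrays were found by the distance between their log2 values after each gene was centred on its own mean. Nearest to ANXA10, of 1068 genes that were well above background in PC3 alone, were PTPRH (69.7 to 283 units from PC3 control to PC3 ATO, distance 0.60), FAM131B (80.7 to 298 units, 0.61) and COL2A1 (109 to 334 units, 0.62). Each was higher with ATO in PC3, by 2.07, 1.93 and 1.67 on the log2 scale, less than ANXA10. Nearest to ANXA3, of the same 1068, were SERPINB7 (distance 0.13), the receptor gene MET (0.17) and CNN3 (0.17), all lower with ATO in PC3 with log2 ratios of -0.36, -0.40 and -0.65. Nearest to ANXA1, of 410 genes with its pattern of background calls, were the integrin gene ITGA3 (0.63), RAC2 (0.64) and CAPG (0.93), whose PC3 log2 ratios were 0.29, 0.41 and 0.73. A distance over 4 arrays describes these profiles and nothing more.

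Partners of annexins were read from a list of 17 genes, which holds S100 proteins, calcium-binding adaptors, plasmin genes, formyl peptide receptors, cytosolic phospholipase A2 and ferlins. Between the untreated lines 12 of the 14 with a value were higher in PC3 and 0 lower, where 20.6% of all genes were higher. The count was 9 with the 50th percentile, where 2257 of all 15237 genes were higher. For 6 of the 14 the value is a bound. S100A10, the partner of ANXA2, named after its values were seen, read 105, 115, 25988 and 30387 units in the order used above, which is 209-fold higher in untreated PC3. S100A10 was thus low in both LNCaP arrays and high in both PC3 arrays, as ANXA2 was. The ATO ratios of S100A10 were 0.03 (LNCaP) and 0.27 (PC3) on the log2 scale.

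With ATO, the partners called in PC3 were S100A4 and PLAT, 2 of 14 with a value, where 18.5% of all genes were called. S100A4, a partner of ANXA2 linked to cell motility, went from 2630 to 4906 units, a log2 ratio of 0.95. PLAT, the tissue plasminogen activator that binds the ANXA2 complex, went from 6198 to 3457 units, a log2 ratio of -0.79 over 10 spots per array. In LNCaP 2 of 8 partners with a value were called, where 4.75% of all genes were, S100A4 at 0.74 and the ANXA2 receptor gene ANXA2R (listed as C5orf39) at 0.61. Both spots lay in a bright local background on the LNCaP ATO array, as did that of S100A4 on the PC3 control array, and with such spots left out 0 partners were called higher in either line while PLAT stayed lower. In that setting 3.09% of all genes were called in LNCaP and 15.4% in PC3. The median log2 ratio of the measured partners was 0.08 in LNCaP and 0.09 in PC3, and the PC3 median was -0.06 with the bright local backgrounds left out.

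Among the S100 genes, 13 of the 19 on the array had a value in PC3, 8 of them higher with ATO and 1 lower, where 18.5% of all genes were called and 8.2% were higher, with a median log2 ratio of 0.87 over the 12 measured on both arrays. The same list shares 4 genes with the partners. S100A14 (5410 to 12784 units, 1.29) and S100A5 (144 to 321 units, 1.20) had the largest ratios, and the PC3 control spot of S100A5 was in a bright local background. S100A8 was the one called lower, by at least 5.72-fold (318 to 19.1 units, the latter not well above background). With bright local backgrounds left out, 5 of 8 were higher and 1 lower, where 791 of all 10328 genes were higher and 800 lower. In LNCaP 3 of 7 S100 genes with a value were called, all higher, where 4.75% of all genes were called. With such spots left out 1 of 5 was called, where 3.09% of all genes were. S100A8 was among the 3, at least 5.29-fold higher with ATO in LNCaP, from an ATO spot in a bright local background. All 13 S100 genes with a value between the untreated lines were higher in PC3, where 20.6% of all genes were. With the 50th percentile or normexp 12 of 13 were higher, where 2257 of 15237 and 2098 of 15220 genes were. For 7 of the 13 the value is a bound.

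Copines, a further family of calcium-dependent phospholipid-binding proteins, gave 1 higher and 1 lower of 5 with a value in PC3, where 18.5% of all genes were called. CPNE8 went from 139 to 280 units (1.06) and CPNE7 from 331 to 206 units (-0.64). In LNCaP 0 of 4 copines passed the threshold, where 4.75% of all genes did. Both called PC3 copines had a spot in a bright local background on 1 array, and 0 of the 3 that remained without such spots were called. In that setting 15.4% of all genes were called. Of the annexins outside the rule, ANXA13 was not well above background on any of the 4 arrays, and ANXA8L2 read 7.93, 10.9, 57.0 and 44.4 units, well above background in PC3 control alone.

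**Figure D5:**
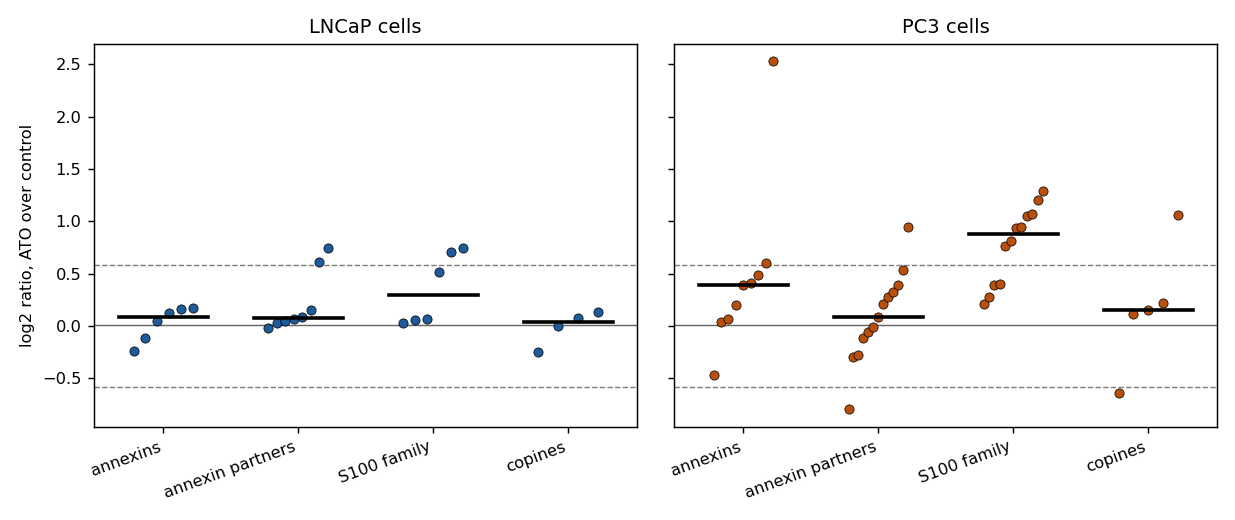
Log2 ratio of ATO over control in LNCaP (left) and PC3 (right) for every gene of 4 lists measured on both arrays of the line, with thick bars for the list median, a thin line for the median of all genes and dashed lines at 1.5-fold. The PC3 medians are 0.39 for annexins, 0.09 for partners, 0.87 for S100 genes and 0.16 for copines, against 0.01 for all genes.

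The promoters of ANXA2 and ANXA10 are shown because both genes were not well above background in LNCaP and readable in PC3, while their promoters differ in CG content. They are the 250 bases before the start of the gene in RefSeq on GRCh38.p14, with each CG dinucleotide in capitals, ANXA2 at chr15:60397987-60398236 on the minus strand and ANXA10 at chr4:168092287-168092536 on the plus strand.
ANXA2: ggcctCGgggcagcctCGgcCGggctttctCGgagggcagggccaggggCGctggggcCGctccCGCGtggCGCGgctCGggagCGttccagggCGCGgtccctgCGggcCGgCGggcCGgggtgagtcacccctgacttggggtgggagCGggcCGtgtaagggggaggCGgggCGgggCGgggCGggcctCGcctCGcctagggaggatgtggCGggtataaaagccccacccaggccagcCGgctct
ANXA10: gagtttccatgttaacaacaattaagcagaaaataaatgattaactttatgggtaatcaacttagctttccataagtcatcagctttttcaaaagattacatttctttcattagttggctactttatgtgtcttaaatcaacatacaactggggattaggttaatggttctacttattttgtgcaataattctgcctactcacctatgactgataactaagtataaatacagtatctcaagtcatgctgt
The ANXA2 promoter holds 28 CG dinucleotides, and 15.9% of the 35116 RefSeq promoters hold at least as many. The ANXA10 promoter holds 0, as do 6.06% of all promoters. The 14 promoters of the 10 members ranged from 0 (ANXA1 and ANXA10) to 36 (1 of the ANXA4 starts), and the median over all promoters was 11 with quartiles of 3 and 23. ANXA1, ANXA2, ANXA3 and ANXA10, all at or near background in LNCaP, span most of that range, with 18 in ANXA3. On either strand, TATAAA was found in 4 of the 14 member promoters (ANXA1, ANXA2, ANXA10 and 1 start of ANXA11) and in 10.7% of all, CCAAT in 4 of 14 and 32.0%, and TGAGTCA in 1 of 14 (ANXA2) and 4.20%. None of the motifs searched holds another, and the ANXA3 promoter held none of them. These matches describe the sequence, and no binding or methylation was measured here.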

How the data were processed

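Per the file headers, the authors used Agilent Feature Extraction 9.5.3.1 and probe positions on hg18. The deposited scanner files hold the processed intensity of each spot on a linear scale, with background subtracted, and yes or no calls of whether a spot was clearly above background or an outlier. The deposited table holds a ratio. Its values over 1 were found to be processed intensity divided by the array's 75th percentile, since at least 99.4% of them lay within 2% of this quotient. Its lowest value was 0.03, and values up to 1 were not compared. The deposited table was used as an alternative. The software and test behind the gene calls of the study were not rerun.

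Outlier spots were left out, log2 intensities of the copies of a probe were averaged, and each array's 75th percentile was subtracted. Probes with over 50% of their spots well above background were called so. A gene was read by its brightest probe over the 4 arrays, with the others given beside it. Where 1 of 2 arrays was well above background, the ratio is a bound against the higher of the dim value and the lowest value well above background. A gene was called at 1.5-fold for ATO and at 2-fold between untreated lines. With 1 array per group there is no p-value, and the precision is limited by the number of arrays.

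All 10 members are named, as are the partners called in a line, the 2 S100 genes and 2 copines with the largest ratio in PC3, and the 3 genes nearest to ANXA1, ANXA3 and ANXA10. S100A10, S100A8 and the pseudogenes were named after their values were seen. The members and lists were chosen with earlier results of these data known. The calling step was tested on simulated data, with changes of at least 2-fold in bright genes only. That says little on calls near 1.5-fold, dim probes or the spread between cultures. Alternatives were the 50th percentile, spike-in probes and quantile normalization as scaling, normexp (limma 3.58.1, R 4.3.3, offset 50), outlier spots kept, the median over probes, no filter, bright local backgrounds left out, the deposited table and a higher fold threshold. Python 3.11.15 with pandas 2.3.3 and numpy 2.4.6 was used. All 10 members matched RefSeq symbols. No hg18 gene annotation was used here, and no protein sequence. Some genes of the marker and treatment checks are not reported here.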

Additional observations from a re-analysis of the deposited data

How the results depend on the processing

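Of 48 alternatives for the counts and medians of the annexins, 40 left a count within 1.5 times, or a median within 0.13 (the spread of repeated spots in a ratio), of the value reported. In LNCaP the count of changed annexins was 0, and 1 (higher) with no filter on dim probes, where background values of dark probes enter and the median of all genes moved by 0.15. With no filter 42.9% of all LNCaP genes were called, against 4.75%. In PC3 the count was 2, and 5 with the 50th percentile, 3 with the median over probes, 1 with spike-in scaling and 1 at 2-fold. Of all PC3 genes 18.5% were called, and 22.2%, 20.6%, 19.1% and 6.09% in these settings in the same order. Between the untreated lines it was 7, 10 with spike-in scaling, 6 with the 50th percentile, quantile normalization, normexp or bright local backgrounds left out, and 4 at 4-fold, 3 higher in PC3 and 1 lower. Of all genes 39.6% differed, 40.3% with spike-in scaling, 45.9% with the 50th percentile and 39.5% with quantile normalization. The share was 30.2% with normexp, 38.1% with bright local backgrounds left out and 16.1% at 4-fold. The median log2 ratio in LNCaP was 0.09, and 0.29 with spike-in scaling, which moved the median of all genes by 0.20. In PC3 it was 0.39, and 0.59 with the 50th percentile and 0.23 with bright local backgrounds left out, which leaves 6 genes.

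ANXA10 stayed called in PC3 in 9 of 9 alternatives (1.78 with normexp to 2.79 with quantile normalization), and ANXA4 in 8 of 9 (0.51 with spike-in scaling to 0.79). ANXA3 stayed below 0 in PC3 in 9 of 9 (-0.56 to -0.28). Each of these genes has 1 probe, so the median over probes, no filter and bright local backgrounds left out could not move its PC3 ratio. Outlier spots kept and the deposited table gave 2.53 and 2.50 for ANXA10, and 0.60 for ANXA4 in both. The counts of alternatives thus rest on fewer settings that could change them. Between lines ANXA10 stayed called in 6 of 9, and ANXA1, ANXA2, ANXA3, ANXA7, ANXA9 and ANXA11 wherever they had a value, though ANXA2 ranged from 5.59 (median over its probes) to 11.87. The causes were not tested. Dim probes limit LNCaP, where ANXA2, ANXA3 and ANXA10 have no ratio. No paired analysis was possible because each group has 1 array.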
